A study of Mus musculus with 469 samples.

Results

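A set of 10 early response genes is described across single cells of the mouse olfactory epithelium: Fos, Fosb, Jun, Junb, Atf3, Egr1, Klf4, Klf6, Ier2 and Dusp1. They were chosen by name, as immediate early genes together with Klf4, and not by a threshold on their values, and all 10 were present among the 23281 genes measured. Cells were captured 1 by 1 on the Fluidigm C1 system, and the polyadenylated RNA of each was amplified and sequenced. OMP-eGFP+ cells, which carry a reporter of mature olfactory sensory neurons on the strain labelled B6 OMP-eGFP, came from epithelium engrafted by transplantation and from epithelium 14 days after olfactory bulbectomy. The host of the graft was not named in the labels. Neurog1-eGFP+ cells, which carry a reporter of neuronal precursors on the strain labelled FVB Neurog1-eGFP, came from uninjured epithelium and from 5 and 14 days after bulbectomy. Bulbectomy removes the olfactory bulb, after which the sensory neurons that project to it die and are replaced. The reference was unsorted and uninjured wild-type epithelium of B6;129SF1/J (F1) hybrids in 2 runs, and all groups were 8 weeks old. No animal was named, so each group counted as 1 sample, cells were not replicates, no test was possible and no p-value is given. Strain cannot be told apart from the sort. The labels give one dissociation for all groups, with trypsin and then a mixture of enzymes at body temperature, before sorting on eGFP.

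Immediate early genes are transcribed within minutes of a stimulus from factors already present in the cell, without new protein synthesis. Fos and Fosb proteins pair with Jun and Junb proteins to form AP-1, which binds DNA and drives a later wave of genes, while Atf3 is a stress-induced member of the same bZIP family. Egr1, Klf4 and Klf6 are zinc finger factors, Ier2 is a nuclear protein of the early response, and Dusp1 is a phosphatase that switches MAP kinases off again. Klf4 is also known as a factor of epithelial differentiation and of reprogramming. Neuronal activity, growth factors and the enzymatic dissociation of tissue are known inducers of many of them.

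Promoters of 8 of the 10 genes were matched in the RefSeq table of build GRCm38.p6, and those of Egr1 and Ier2 were not used here. In the 250 bases before the start, the core of the cyclic AMP response element, TGACGT on either strand, stood in 3 of the 8 (Fos, Atf3 and Dusp1), against 6.56% of 27025 promoters. The full palindrome TGACGTCA, which contains that core, stood in 1 (Dusp1), against 1.62% of all promoters. The TATA motif TATAAA was in 1 (Fos), against 12.97%. The GC box GGGCGG was in 7, all but Junb, against 32.9%. CCAAT was in 3 (Jun, Junb and Klf6), against 34.5%. The AP-1 motif TGANTCA was in 0 of 8, against 6.87%, and the serum response motif, the CArG box, was in 0, against 1.4%. These are matches of letters on both strands and not sites of binding. The 200 bases before the start of the 3 genes that hold the cyclic AMP core are shown with both strands of TGACGT, or the palindrome, and TATAAA in capitals.
Fos, chr12:85473690-85473889, plus strand: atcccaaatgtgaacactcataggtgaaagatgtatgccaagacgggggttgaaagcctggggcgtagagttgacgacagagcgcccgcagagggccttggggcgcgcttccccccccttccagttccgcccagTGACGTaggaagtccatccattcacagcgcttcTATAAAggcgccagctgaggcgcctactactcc
Atf3, chr1:191183334-191183533, minus strand: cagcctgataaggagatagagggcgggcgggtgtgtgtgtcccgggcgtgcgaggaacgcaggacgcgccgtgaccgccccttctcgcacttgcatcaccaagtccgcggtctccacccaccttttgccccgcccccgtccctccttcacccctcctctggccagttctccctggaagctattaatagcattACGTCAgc
Dusp1, chr17:26508473-26508672, minus strand: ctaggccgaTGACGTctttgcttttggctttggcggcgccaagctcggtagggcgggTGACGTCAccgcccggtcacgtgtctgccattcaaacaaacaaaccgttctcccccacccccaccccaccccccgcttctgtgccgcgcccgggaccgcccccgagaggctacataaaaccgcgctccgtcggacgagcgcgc
In Fos the core stands shortly before the TATA motif, in Atf3 it stands at the very end next to the start, and in Dusp1 it occurs as the core and again within the palindrome. In the same build the genes lie on chromosome 12 (Fos), 1 (Atf3), 17 (Dusp1), 7 (Fosb), 4 (Jun and Klf4), 8 (Junb and Ier2), 13 (Klf6) and 18 (Egr1), and all 10 are annotated as protein-coding. The deposited tables were made on mm9, so these positions were not used with them.

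A library was kept with 1000 or more genes at a table value of 1 or more and a summed value of 50000 or more. This kept 29 of 89 engrafted cells, 42 of 50 OMP cells at 14 days, 46 of 61 uninjured Neurog1 cells, 48 of 51 at 5 days, 25 of 26 at 14 days, and 70 and 68 of 96 reference cells of runs 2 and 1. Median depth was 431114 to 1347936 recovered fragments per group. Libraries with over 10000 genes numbered 9, all of run 1, and formed an unnamed cluster with markers of many cell types. No pair of kept libraries held identical values. Clusters were built without the 10 genes and without 54 related genes, and were named by markers. Of the reference cells, 50 of run 2 and 23 of run 1 were sustentacular-rich, that is, in clusters with the markers of the supporting cells that line the epithelial surface. Another 17 of run 2 and 33 of run 1 were neuron-like, in clusters with markers of mature neurons (39 of the 50), immature neurons or precursors. One sustentacular-rich cluster, which held 26 of its 28 reference cells from run 2, rested on 3 of 10 markers, and another was led by the stress co-chaperone Bag3. The classes were not free of each other's transcripts. Sec14l3, a lipid-binding protein of sustentacular cells, had medians of 6844 and 28907 CPM (fragments scaled to the same total in every library) in sustentacular-rich cells of runs 2 and 1, and of 351.1 and 26.8 CPM in neuron-like cells of runs 2 and 1. It was found, here and throughout meaning a CPM of 10 or more, in 100% and 69.7% of those neuron-like cells. Omp, the gene of mature sensory neurons that the OMP reporter follows, was found in 46 of 50 and 17 of 23 sustentacular-rich cells and in 16 of 17 and 30 of 33 neuron-like cells, of runs 2 and 1. Summed levels of 9 immune markers had a median of 0 in both classes of both runs, and reached 8957 CPM in 1 sustentacular-rich cell of run 1.

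**Figure D1:**
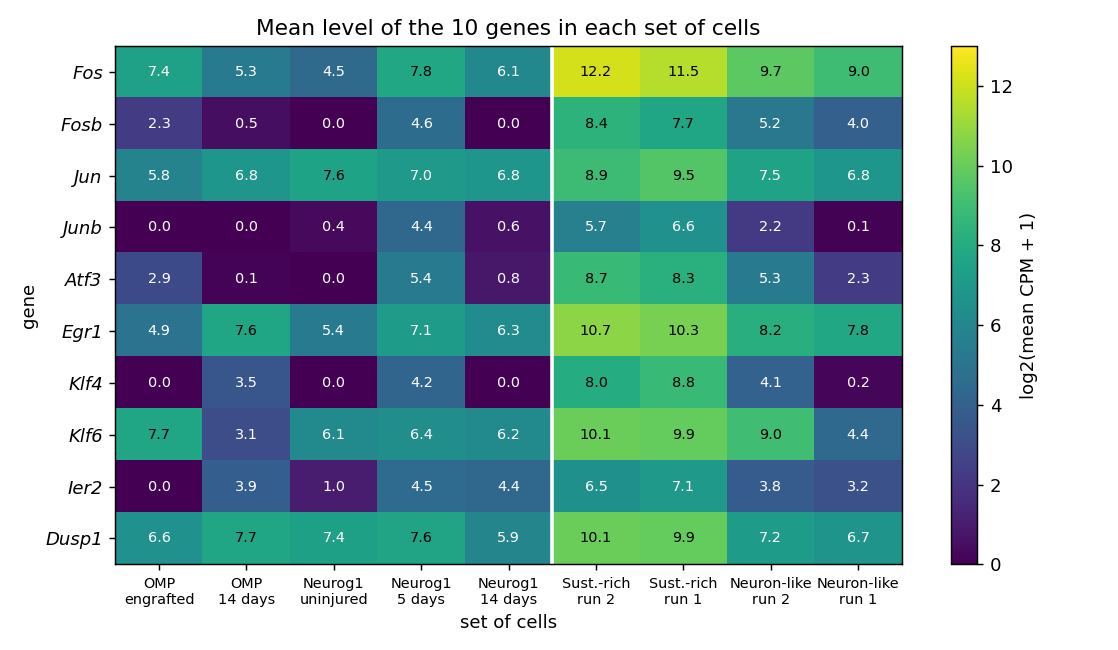
Mean level of the 10 genes, in rows, in each set of cells, in columns, as log2 of the mean CPM plus 1, with the value printed in each field. The 4 columns on the right are the unsorted reference by class and run, and the 2 sustentacular-rich columns hold the highest value of every row.

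Within the unsorted reference, all 10 genes had higher mean levels in sustentacular-rich than in neuron-like cells, and this held in each run on its own. Fos stood highest, and Klf4 and Junb were the most uneven, being nearly missing from neuron-like cells of run 1. All 10 were past a 2-fold difference in both runs, where 41.1% of 9628 genes tested (mean CPM of 5 or more in either class) were 2-fold higher in run 2 and 37.5% of 9700 in run 1. Of all genes tested, 24.8% in run 2 and 35.9% in run 1 were 2-fold lower, none of the 10 among them. The median log2 ratio of mean CPM + 1 over the 10 genes was 2.83 in run 2 and 3.75 in run 1, and that of all genes tested was 0.38 and 0.04. Over both runs pooled, all 10 stayed past 2-fold under each alternative that gave a value, Leiden clustering giving none. In run 2 alone 8 did when libraries of 500 or more genes were kept, and 8 when the 10 genes and the related lists took part in the clustering.

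Fos, the inducible subunit of AP-1, ran from 107.6 to 14062 CPM with a median of 4220 in sustentacular-rich cells of run 2, against 0 to 4434 with a median of 389.2 in neuron-like cells. In run 1 it ran from 250 to 12126 with a median of 2034 in sustentacular-rich cells, against 0 to 7451 with a median of 0 in neuron-like cells. No sustentacular-rich cell of either run lacked it, and the ranges of the classes overlapped in both. The mean was 5.39-fold higher in sustentacular-rich cells of run 2 and 6.02-fold higher in those of run 1. One neuron-like cell of run 1 carried 45.7% of the Fos of its 33 cells. Fosb, the close relative of Fos, averaged 332.01 and 35.5 CPM in sustentacular-rich and neuron-like cells of run 2, and 200 and 14.6 CPM in those of run 1.

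Jun, the partner that is present in many resting cells, was the least uneven of the AP-1 genes in run 2. It ran from 0 to 2813 CPM with a median of 290 in sustentacular-rich cells of run 2, against 0 to 849 with a median of 127.9 in neuron-like cells. In run 1 the range was 3.42 to 2003 with a median of 672 in sustentacular-rich cells, against 0 to 844 with a median of 35.5 in neuron-like cells. Jun was found in 46 of 50 cells (95% interval 80.8 to 97.8%) against 16 of 17 (71.3 to 99.9%) in run 2, so that in this run the classes differed in its level and not detectably in its share. Junb, which pairs with Fos in place of Jun, averaged 50.3 against 3.60 CPM in sustentacular-rich and neuron-like cells of run 2, and 95.8 against 0.0624 CPM in those of run 1. A single cell carried 48.9% of the Junb of the 23 sustentacular-rich cells of run 1. Atf3 averaged 425.8 against 38.4 CPM in run 2 and 306.4 against 3.76 CPM in run 1, again sustentacular-rich first.

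Egr1, a zinc finger factor of the activity response, ran from 0 to 7486 CPM with a median of 1346 in sustentacular-rich cells of run 2, against 0 to 935 with a median of 75.4 in neuron-like cells. In run 1 it ran from 0 to 6485 with a median of 561 in sustentacular-rich cells, against 0 to 1825 with a median of 0 in neuron-like cells. Its means were 5.69-fold and 5.80-fold higher in the sustentacular-rich cells of runs 2 and 1, close to the ratios of Fos. Klf4 ran from 0 to 1765 CPM with a median of 84.2 in sustentacular-rich cells of run 2, against 0 to 200 with a median of 0 in neuron-like cells. In run 1 it ran from 0 to 4505 with a median of 118.3 in sustentacular-rich cells, against 0 to 2.12 with a median of 0 in neuron-like cells. Klf4 was found in 30 of 50 and 14 of 23 sustentacular-rich cells of runs 2 and 1, against 3 of 17 neuron-like cells of run 2 and 0 of 33 of run 1, which allows a share of up to 9.09%. One cell held 43.3% of the Klf4 of the sustentacular-rich cells of run 1. Klf6, a more widely expressed relative, averaged 1079 against 513 CPM in run 2 and 966 against 20.5 CPM in run 1, and 1 neuron-like cell of run 2 with 4125 CPM held 47.3% of the Klf6 of its class.

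Ier2 averaged 92.2 against 12.9 CPM in sustentacular-rich and neuron-like cells of run 2, and 132.04 against 8.43 CPM in those of run 1. Dusp1, the MAP kinase phosphatase, ran from 0 to 2706 CPM with a median of 1018 in sustentacular-rich cells of run 2, against 0 to 733 with a median of 23.2 in neuron-like cells. In run 1 the range was 0 to 5236 with a median of 616 in sustentacular-rich cells, against 0 to 904 with a median of 0.981 in neuron-like cells. Its means were 7.55-fold and 9.11-fold higher in sustentacular-rich cells of runs 2 and 1. In run 1 the exact intervals of the share of cells lay apart for all 10 genes, where this was so, with the share higher in sustentacular-rich cells, for 6.28% of genes tested and with it lower for 1.03%. In run 2, with 17 neuron-like cells, they lay apart for 5 (Fosb, Egr1, Ier2, Atf3 and Klf4), where it was so for 1.04% and in the other direction for 0.218%. Over both runs pooled they lay apart for all 10, where they did upward for 7.0% of genes and downward for 0.909%. Intervals cover the counting of cells and not animals.

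**Figure D2:**
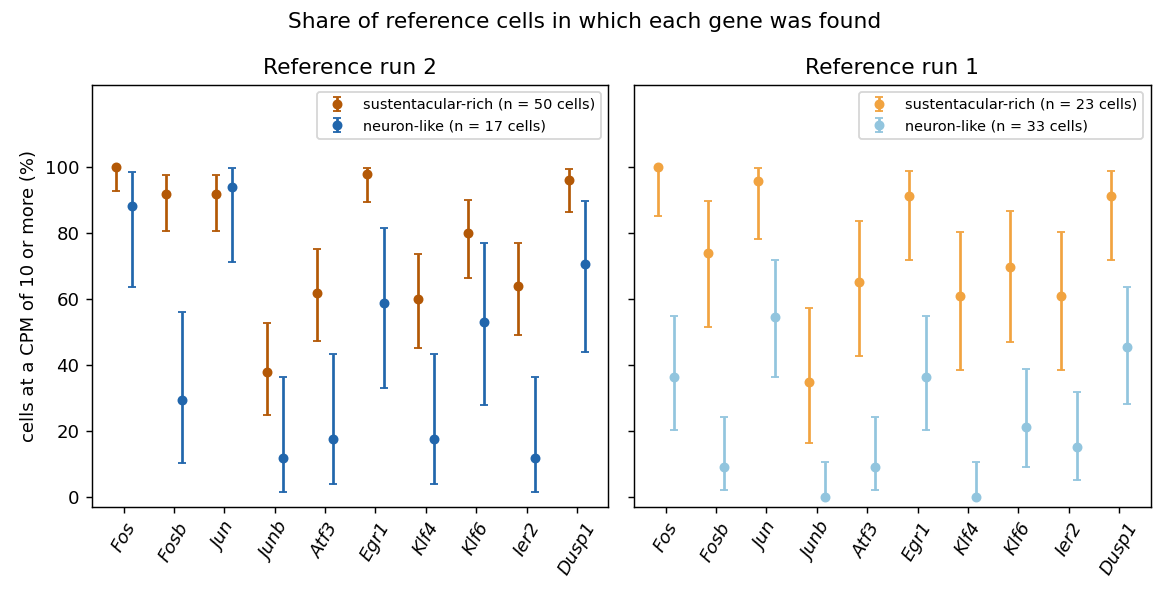
Share of cells in percent in which each of the 10 genes was found, in sustentacular-rich and neuron-like cells of each reference run, with exact 95% binomial intervals. Klf4 stood at 30 of 50 against 3 of 17 cells in run 2 and 14 of 23 against 0 of 33 cells in run 1, while Jun in run 2 stood at 46 of 50 against 16 of 17 cells.

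Neuron-like cells held sustentacular transcripts, so the levels of sustentacular markers were set beside those of the 10 genes. The mean of a gene in neuron-like cells as a percentage of its mean in sustentacular-rich cells had a median of 13.6% over the 10 genes (6.16 to 47.5) in run 2, and of 5.39% over the 10 sustentacular markers (2.25 to 14.5). In run 1 it was 6.84% over the 10 genes (0.0267 to 17.2) and 1.32% over the markers (0.0102 to 9.63). The summed level of the markers ran from 1126 to 101470 CPM in sustentacular-rich and 134.3 to 9705 CPM in neuron-like cells of run 2, and from 2231 to 145856 and 26.9 to 96833 CPM in those of run 1. The neuron-like cell at 96833 CPM had 49130 CPM of Omp and low levels of 4 of the 10 genes, of which Jun at 41.5 CPM was highest, and Fos at 0. Sec14l3, Cyp2g1 and Ugt2a1 together were under 100 CPM in 12 of 33 neuron-like cells of run 1 and in 1 of 17 of run 2. All 10 markers together still ran from 26.9 to 4990 CPM in those 12, with a median of 159.8, and stood at 134.3 CPM in the 1 cell of run 2. In those 12 cells Fos was found in 5 with a mean of 473 CPM, of which 1 cell held 75.9%, and Jun in 7 with a mean of 146.3 CPM, while Atf3, Junb and Klf4 were found in none. Against these 12 cells all 10 genes remained at least 2-fold higher in the sustentacular-rich cells of run 1, with no share over all genes given. The part of carried-over RNA in the lower levels of neuron-like cells was not tested beyond this.

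Between the Bag3-led and the thinly marked sustentacular-rich clusters, a comparison chosen after the values were seen, Fos was found in every cell of both, while Atf3, Junb and Klf6 differed in share. A further cluster of this class, with 5 cells of run 2, was left out. In run 2 the Bag3-led cluster (19 cells) had Atf3 in 94.7%, Junb in 68.4%, Klf6 in 100% and Ier2 in 84.2% of cells. The thinly marked cluster (26 cells) had them in 34.6%, 15.4%, 61.5% and 46.2%. Fos averaged 4208 and 4856 CPM, and Dusp1 averaged 1014 and 1067 CPM. The exact intervals lay apart for Atf3 (73.97 to 99.9 against 17.2 to 55.7), Junb (43.4 to 87.4 against 4.36 to 34.9) and Klf6 (82.4 to 100 against 40.6 to 79.8), 3 of the 10 genes, where they lay apart upward for 5.85% of 9585 genes and downward for 0.0%. Sec14l3 differed between the same clusters, with means of 13976 and 4682 CPM. Over all groups, cells of the Bag3-led and thinly marked clusters had a median depth of 1.02 and 0.773 of that of their own samples. The part of Sec14l3-bearing RNA or of depth in these differences was not tested.

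The genes occurred together in the same cells. Sustentacular-rich reference cells held a median of 8 of the 10 genes and neuron-like cells a median of 3, and 5 or more were found in 70 of 73 (88.5 to 99.1%) against 10 of 50 (10.03 to 33.7%). All 10 were found in 12 of 73 sustentacular-rich and 0 of 50 neuron-like cells. Sorted cells held a median of 1 in the engrafted group and 1.5 to 2 in the others. Over the 129 reference cells without the large libraries, Pearson's r of log2(CPM + 1) between pairs of the genes had a median of 0.44 over 45 pairs (0.31 to 0.67). Within the 73 sustentacular-rich cells the median was 0.18 (−0.05 to 0.50), highest between Fosb and Egr1 at 0.50, and within the 50 neuron-like cells it was 0.16 (−0.10 to 0.40). Cells share libraries and depth, and the pooled value carries the difference between classes.

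**Figure D3:**
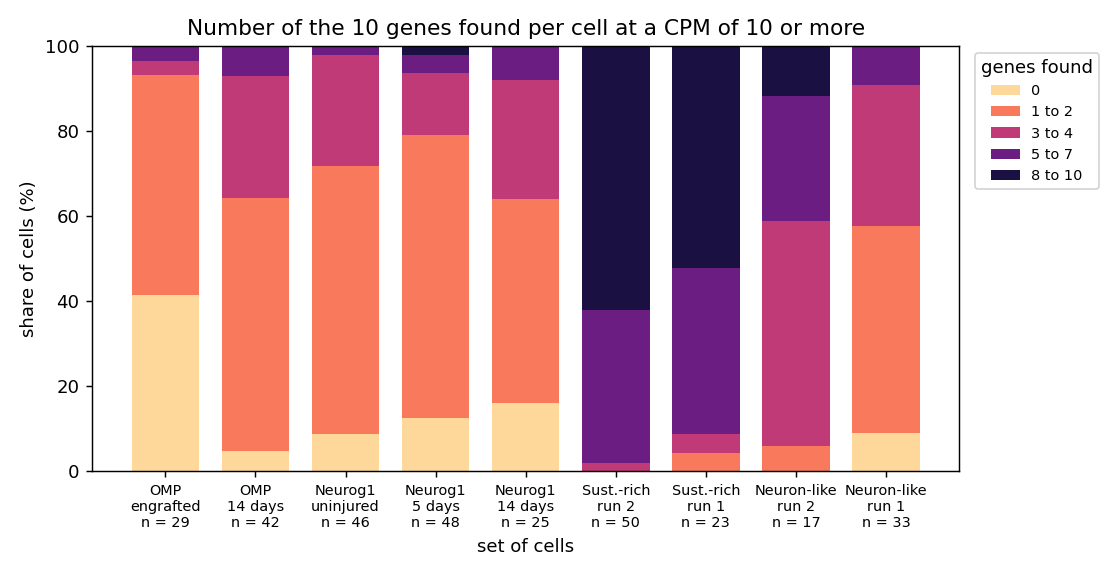
Share of cells in percent by the number of the 10 genes found in the cell, for each set of cells. Sets of sorted cells hold mostly 0 to 4 of the genes per cell, while sustentacular-rich cells of the reference hold a median of 8.

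Jun often stood without Fos in the sorts. Fos was found in all 73 sustentacular-rich reference cells, so neither Jun nor Egr1 could stand without it there. Both were found in 68 of 73 sustentacular-rich reference cells and Jun without Fos in 0. Among neuron-like reference cells, 19 of 50 held both and 15 held Jun without Fos. In the sorts, cells with Jun but not Fos numbered 27 of 42 for OMP at 14 days, and 33 of 46, 27 of 48 and 13 of 25 for Neurog1 in the uninjured animals and at 5 and 14 days. Engrafted cells differed, with 6 of 29 with Jun alone and 20 of 29 holding neither gene. Egr1 at 1000 CPM or more occurred in 38 of 73 sustentacular-rich cells, a class in which every cell held Fos. It did so in 4 of 50 neuron-like cells, none of which held Fos.

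Set against the whole unsorted reference, the uninjured Neurog1 sort was lower in all 10 genes. All were past 2-fold, where 32.6% of 11061 genes tested were 2-fold lower and 22.4% 2-fold higher, and the median log2 ratio was −5.31 against −0.16 for all genes. The median was the same to within rounding with the genes listed at 0 placed at their bounds. Fosb, Atf3 and Klf4 were listed at 0 in all 46 sorted cells, which allows each a share of up to 6.52%, against means of 172.1, 231.4 and 182.7 CPM in the reference. Against a floor of 3 fragments over the group, 0.0772 CPM, they were at least 1957-fold, 2636-fold and 2668-fold lower in the sort. The exact intervals of the share lay apart for 9 of the genes, all but Jun, where they lay apart downward for 5.82% and upward for 3.98% of genes. Junb averaged 0.276 against 50.5 CPM, with 1 cell of 46 at 12.7 CPM, and Ier2 averaged 1.06 against 79.6 CPM. Sustentacular markers were low in this sort beside the reference, with summed levels of 0 to 936 CPM and a median of 0, against 26.9 to 145856 CPM and a median of 8249.

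Set against the neuron-like reference cells only, the picture was split by gene. Of 9 genes tested, 7 were 2-fold lower in the uninjured Neurog1 sort, where 26.2% of 10103 genes were and 34.8% were 2-fold higher. Fos ran from 0 to 403.4 CPM in the sort and averaged 21.2 against 616 CPM in neuron-like reference cells, and was found in 6 of 46 (4.94 to 26.3%) against 27 of 50 cells (39.3 to 68.2%). Egr1 averaged 41.4 against 245.1 CPM and was found in 6 of 46 (4.94 to 26.3%) against 22 of 50 cells (29.99 to 58.7%). These were the 2 genes whose share intervals lay apart, where 0.921% of genes lay apart in the lower and 5.55% in the upper direction. Jun and Dusp1 were not lower, with means of 188.3 against 134.6 CPM and 168.6 against 118.2 CPM. Jun was in 37 of 46 sorted cells (80.4%, 66.1 to 90.6) with a median of 129 CPM and Dusp1 in 24 (52.2%, 36.9 to 67.1) with a median of 12.3 CPM. Klf6 averaged 69.9 CPM in the sort against 187.9 CPM, but 20.5 CPM in neuron-like cells of run 1, so its direction depended on the run. With run 1 alone 4 of the genes were 2-fold lower. Against the 13 neuron-like cells under 100 CPM of Sec14l3, Cyp2g1 and Ugt2a1 together, 12 of them of run 1, 3 were. No share over all genes is given for either set.

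**Figure D4:**
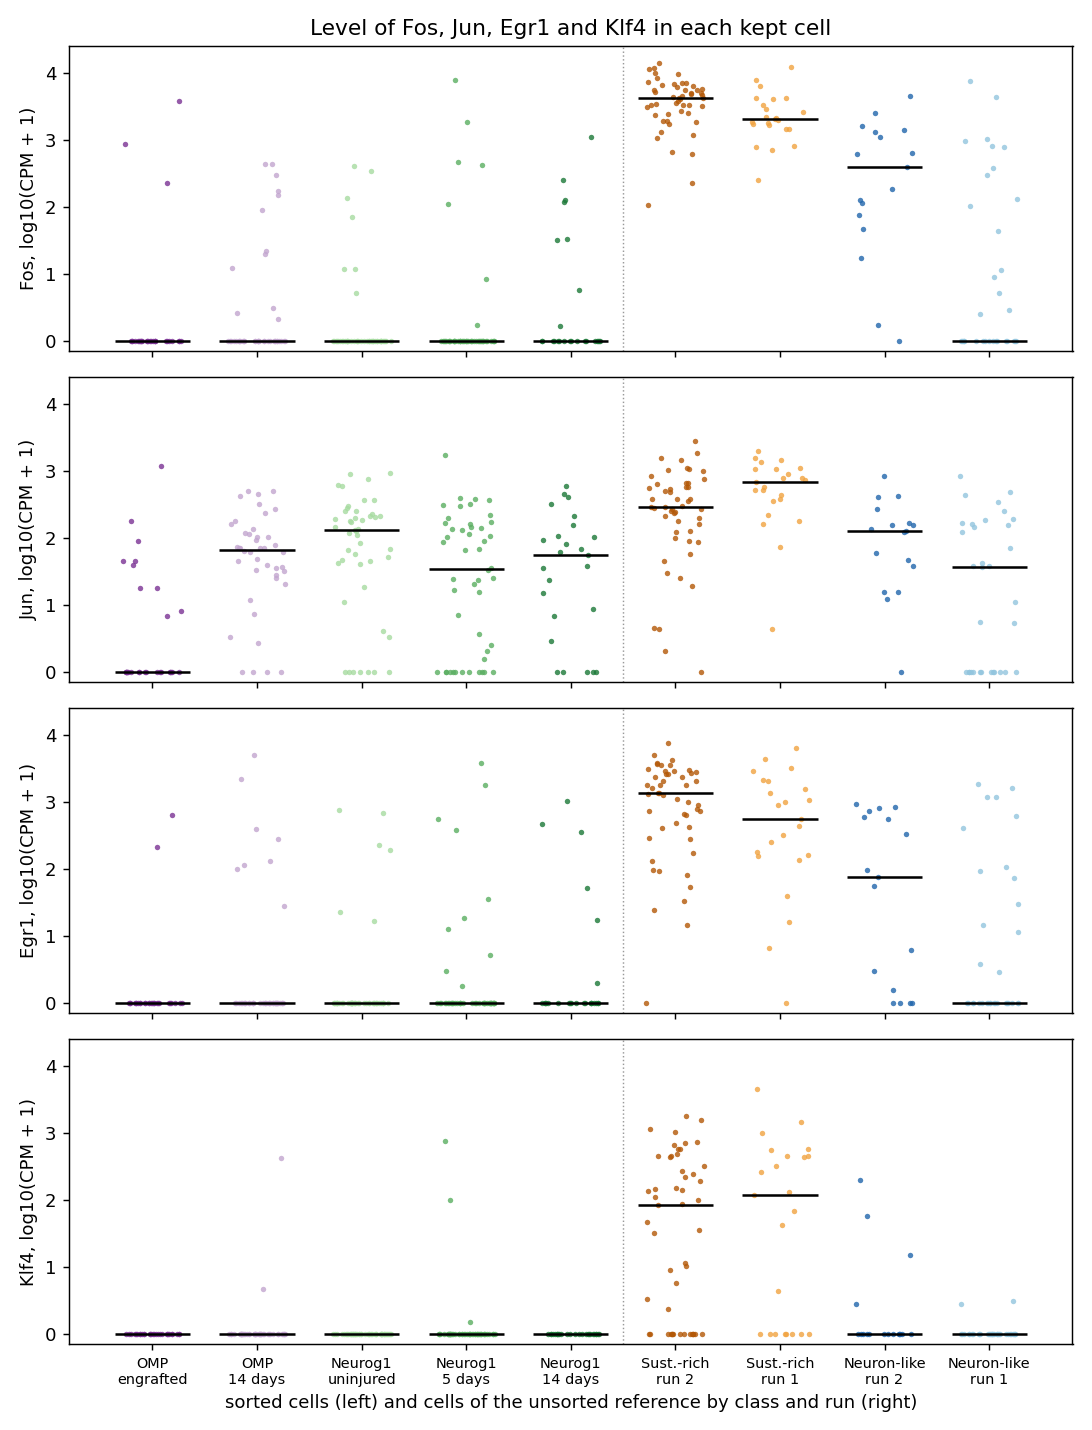
Level of Fos, Jun, Egr1 and Klf4 in each kept cell as log10 of CPM plus 1, for the sorts on the left and the reference by class and run on the right, with bars at the medians. Fos had a median of 0 in all 5 sorts, of 389.2 and 0 CPM in neuron-like and of 4220 and 2034 CPM in sustentacular-rich cells of runs 2 and 1, while the median of Jun was above 0 in all sets but the engrafted cells.

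Across the Neurog1 sorts of uninjured, 5 day and 14 day epithelium, Fos was found in 6 of 46, 5 of 48 and 6 of 25 cells and averaged 21.2, 220 and 66.2 CPM. Jun was found in 37 of 46, 31 of 48 and 17 of 25 cells, with medians of 129, 33.6 and 54.2 CPM. Egr1 was found in 6 of 46, 7 of 48 and 5 of 25 cells, and Dusp1 in 24 of 46, 24 of 48 and 10 of 25. No exact interval of a share lay apart from another for any of the 10 genes between any of the 3 times. Over all genes tested they lay apart from the uninjured sort for 0.139% upward and 0.298% downward at 5 days, and for 0.15% upward and 0.14% downward at 14 days. Between 14 and 5 days they did so for 0.112% upward and 0.0508% downward. Klf6 was found in 11 of 46, 12 of 48 and 7 of 25 cells with means of 69.9, 86.3 and 72.5 CPM.

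By mean level, 7 of the 10 genes were 2-fold higher at 5 days than in the uninjured sort, where 20.9% of 10054 genes were, with a median log2 ratio of 3.40. These were Fos, Fosb, Junb, Egr1, Ier2, Atf3 and Klf4, and 1 cell held 46.2% of the summed level of its group. That cell held all 10 genes, with 7713 CPM of Fos, 2963 of Dusp1, 2023 of Atf3 and 1730 of Jun. It was sustentacular-rich, with 10 of 10 sustentacular markers found and 0 of 4 neuronal genes (Omp, Gap43, Neurog1 and Gng8). Without the sustentacular-rich cells, 3 genes were 2-fold higher (Fos, Egr1 and Klf4), with no share over all genes given. Fosb, Junb and Atf3 then averaged 0.261, 0 and 0.0214 CPM at 5 days. Of those 3 remaining means at 5 days, 65.02% of Fos, 78.95% of Egr1 and 99.9% of Klf4 came from 1 cell each. The sort at 5 days also differed from the uninjured one in sustentacular markers, with summed levels up to 61517 against 936 CPM.

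At 14 days, 2 of 6 genes tested were 2-fold higher than in the uninjured sort, where 22% of 9992 genes were, and 1 was 2-fold lower, where 29.9% were. Fos averaged 66.2 against 21.2 CPM and Ier2 19.8 against 1.06 CPM, and 1 cell each held 65.99% of the first and 79.99% of the second at 14 days. With each gene's own highest cell left out of both sorts, Fos averaged 23.4 against 12.8 CPM and Ier2 4.13 against 0.221 CPM, so that Fos was within 2-fold and Ier2 was under the level at which a gene was tested. Dusp1 averaged 58.5 against 168.6 CPM, with highest cells of 478 and 1077 CPM. Against 5 days, 6 genes were 2-fold lower at 14 days, where 27.1% of 9844 genes were. Without the sustentacular-rich cells 2 were, with no share over all genes given. Fosb and Klf4 were listed at 0 in all 25 cells at 14 days.

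**Figure D5:**
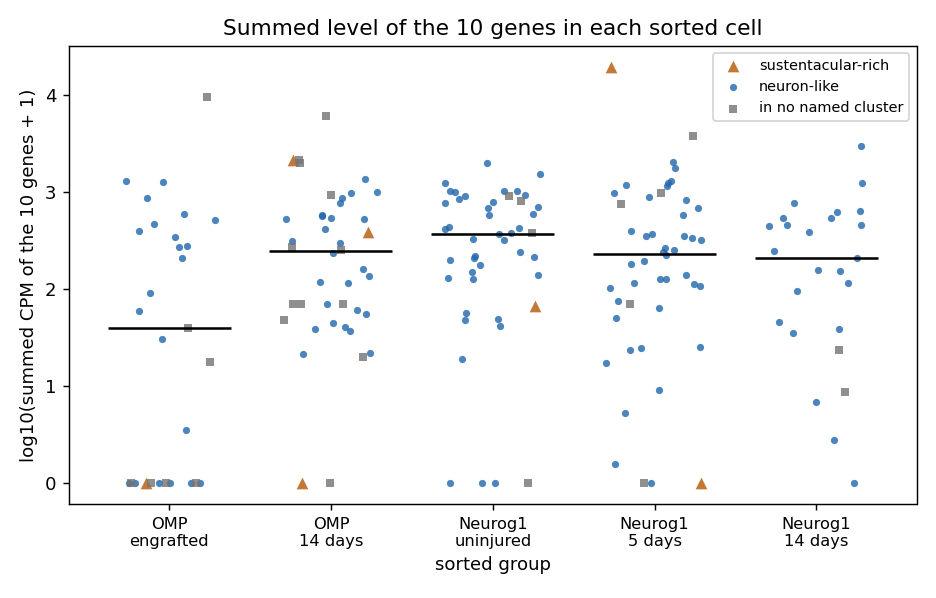
Summed CPM of the 10 genes in each sorted cell as log10 of the sum plus 1, by sorted group, with the class of the cell shown by colour and shape and bars at the group medians. Medians lay between 38.7 CPM in engrafted cells and 374.2 CPM in uninjured Neurog1 cells, and the highest cell, at 19653 CPM, was a sustentacular-rich cell of the 5 day sort.

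Within the Neurog1 sorts the immature neuron-like cluster and the larger of 2 precursor-like clusters were set side by side after their values were seen. The smaller one, with 1, 2 and 2 cells of the uninjured, 5 day and 14 day sorts, was left out. Fos was found in 3 of 8, 4 of 25 and 4 of 11 immature neuron-like cells of the uninjured, 5 day and 14 day sorts, against 0 of 21, 0 of 13 and 1 of 10 precursor-like cells. Egr1 was found in 3 of 8, 5 of 25 and 4 of 11 immature neuron-like cells, against 3 of 21, 0 of 13 and 1 of 10 precursor-like cells. Jun ran the other way, in 6 of 8, 14 of 25 and 7 of 11 immature neuron-like cells against 20 of 21, 12 of 13 and 9 of 10 precursor-like cells, with means of 129.1, 65.8 and 95.7 CPM against 215.7, 176.7 and 173.9 CPM. For these 3 genes, picked from the 10, the order was the same at the 3 times, but the exact intervals of the 2 compared clusters overlapped within each time. Klf6 kept no such order, in 2 of 8, 5 of 25 and 5 of 11 immature neuron-like cells against 6 of 21, 2 of 13 and 2 of 10 precursor-like cells. Nor did Ier2, in 0 of 8, 3 of 25 and 1 of 11 against 0 of 21, 0 of 13 and 2 of 10. For Jun the intervals, in percent, were 34.9 to 96.8, 34.9 to 75.6 and 30.8 to 89.1 in immature neuron-like cells, against 76.2 to 99.9, 63.97 to 99.8 and 55.5 to 99.7 in precursor-like cells.

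The OMP sort at 14 days was set against the Neurog1 sort of the same day. Of 42 OMP cells, 27 were neuron-like, 12 were in unnamed clusters and 3 were sustentacular-rich. Of 25 Neurog1 cells, 23 were neuron-like and 2 were in unnamed clusters. Of 7 genes tested, 3 were 2-fold higher in OMP cells, where 32.4% of 10022 genes were, and 1 was 2-fold lower, where 28.6% were. Jun averaged 111.9 against 112.9 CPM and was found in 35 of 42 against 17 of 25 cells. Egr1 averaged 195.8 against 77.4 CPM, with 61.1% of the first in 1 cell of an unnamed cluster. Klf4 averaged 10.2 CPM against 0, with 99.1% of it in 1 cell. Dusp1, higher at 204.1 against 58.5 CPM, was spread over 21 of 42 OMP cells and 10 of 25 Neurog1 cells. Klf6 was the gene that was lower, at 7.56 against 72.5 CPM, although its shares of 9 of 42 (10.3 to 36.8%) and 7 of 25 (12.1 to 49.4%) overlapped. The highest cell held 91.2 CPM of Klf6 in the OMP sort and 828 CPM in the Neurog1 sort. No share interval of the 10 genes lay apart, where 2.91% and 1.12% of genes lay apart upward and downward.

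Engrafted OMP cells held the fewest of the genes. None of the 10 was found in 12 of 29 cells (41.4%), against 2 of 42 (4.76%) at 14 days. Jun was found in 8 of 29 engrafted cells (12.7 to 47.2%) against 35 of 42 at 14 days (68.6 to 93.03%), and was the 1 gene whose share intervals lay apart, where 0.0727% of genes lay apart upward and 1.4% downward. By mean level 4 of 8 genes tested were 2-fold lower, where 35% of 9623 genes were, and 3 were 2-fold higher, where 21.7% were. The lower ones were Egr1 (29.6 against 195.8 CPM), Dusp1 (93.5 against 204.1 CPM), and Ier2 and Klf4, both listed at 0 in all 29 engrafted cells and so at least 108.7-fold and 74.2-fold lower. Both bounds rested on 1 OMP cell each, with 97.1% of the Ier2 and 99.1% of the Klf4 of its group. Without that cell the bound for Ier2 was 2.65-fold, and Klf4 had 1 fragment left in OMP cells and so no bound. Without the sustentacular-rich cells of both groups 2 were 2-fold lower, Egr1 and Klf4, with no share over all genes given. The higher ones were Fos (170 against 39.2 CPM), Klf6 (202.04 against 7.56 CPM) and Atf3 (6.51 against 0.0784 CPM). One engrafted cell held 58.5% of the summed level, with 3835 CPM of Fos, 2759 of Klf6 and 1168 of Jun, and had 7 of 10 sustentacular markers and 0 of the 4 neuronal genes. Fos was found in 3, Klf6 in 6 and Atf3 in 1 of the 29 engrafted cells, the one with Atf3 being a neuron-like cell at 188.8 CPM that held all of it. Without each gene's own highest cell in both groups, Klf6 alone was 2-fold higher, and Jun, Egr1 and Dusp1 were 2-fold lower, with no share over all genes given. Median depth was 501827 fragments in engrafted cells and 1347936 at 14 days, so both were thinned to 100000 fragments, where 1 fragment is a CPM of 10 and 3 engrafted cells were too shallow. Jun was then found in 9 of 26 engrafted cells (17.2 to 55.7%) against 37 of 42 at 14 days (74.4 to 96.02%), and the intervals still lay apart.

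Both OMP groups were lower than neuron-like reference cells in several of the genes. At 14 days 4 of 9 genes tested were 2-fold lower, where 26.5% of 9818 genes were: Fos (39.2 against 616 CPM), Fosb, Atf3 and Klf6. In engrafted cells 7 of 9 were, all but Dusp1 and Klf6, where 35.6% of 9544 genes were. Against the 13 neuron-like cells under 100 CPM of Sec14l3, Cyp2g1 and Ugt2a1 together, 2 genes were 2-fold lower at 14 days and 4 in engrafted cells. No share over all genes is given for these 13 cells. Cells with Fos numbered 9 of 42 at 14 days (10.3 to 36.8%) and 3 of 29 in the engrafted group (2.19 to 27.4%), against 27 of 50 (39.3 to 68.2%) neuron-like reference cells, and the intervals lay apart in both comparisons. In engrafted cells those of Jun and Egr1 did too. Such an interval lay apart downward for 0.234% of genes at 14 days and 0.241% in engrafted cells. Jun, Egr1, Dusp1, Ier2 and Klf4 at 14 days were within 2-fold, with Jun at 111.9 against 134.6 CPM and Dusp1 at 204.1 against 118.2 CPM. Without each gene's own highest OMP cell, Egr1, Ier2 and Klf4 were also past 2-fold, at 77.98 against 245.1, 0.41 against 9.95 and 0.0915 against 5.52 CPM. No reference cell was left out there, so this setting could only lower the OMP side, and no share over all genes is given for it. One neuron-like reference cell held 72.4% of the Klf4 of its class. Both comparisons use the same reference cells.

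The 2 runs of the reference differed in several of these genes over all cells. Among neuron-like cells they differed in the share of cells with Fos, and among sustentacular-rich cells no gene was past 2-fold. Over all cells 5 genes were 2-fold higher in run 2, where 19.3% of 10860 genes were and 37.9% were 2-fold lower: Fos (3637 against 1326 CPM), Fosb (257.8 against 83.8), Atf3 (331.3 against 128.5), Egr1 (1315 against 612) and Klf6 (958 against 362.9). The number was also 5 with the 9 large libraries left out, and 2 by pooled fragments. Share intervals lay apart for Fos, Fosb, Egr1, Dusp1, Klf4 and Klf6, where 0.249% of genes lay apart upward and 7.36% downward. Sustentacular-rich cells were 71.4% of the kept cells of run 2 and 33.8% of those of run 1. The part of this make-up in the differences over all cells was not tested. Within sustentacular-rich cells 0 of 10 were 2-fold apart in either direction, where 35.4% of 9935 genes were higher and 32.2% lower, with Fos at 4604 against 2971 CPM and Klf4 at 259.6 against 452.6 CPM. Within neuron-like cells 4 of 9 were 2-fold higher in run 2, where 30.3% of 8862 genes were and 40.2% were 2-fold lower: Fosb, Atf3, Klf4 and Klf6. In neuron-like cells of run 2, 1 cell held 73.4% of the Klf4, and 2 cells together held 95.6% of the Atf3. Log2 ratios of Fosb and Klf4 in neuron-like cells were −1.0 and −0.09 when only cells of 2000 or more genes were kept. Fos in neuron-like cells was found in 15 of 17 against 12 of 33 cells, and was the 1 gene there whose intervals lay apart, where 0.372% of genes lay apart upward. Sec14l3 was found in 17 of 17 against 23 of 33 of the same cells, and the part of carried-over RNA in this difference was not tested.

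Between genes, levels were compared per length in FPKM. In sustentacular-rich cells Fos had the highest mean, at 2390 and 1568 FPKM in runs 2 and 1, followed in both by Dusp1 (614 and 553) and Egr1 (572 and 434.6). Junb was lowest in run 2 at 31.03 and Fosb in run 1 at 54.7 FPKM. In neuron-like cells Fos was again first by mean, at 446.6 and 267.1 FPKM in runs 2 and 1. Its medians there were 202.3 and 0 FPKM, and in run 1 Jun had the highest median, at 11.7 FPKM. Dusp1 led by mean in uninjured Neurog1 cells at 91.7 FPKM, followed by Jun at 60.1, with Fos at 10.8. Dusp1 also led by mean in OMP cells at 14 days at 113.4 FPKM, with Fos at 19.98. By median Jun stood above Dusp1 in both, at 40.6 against 6.74 FPKM in uninjured Neurog1 cells and 21.6 against 6.38 FPKM in OMP cells at 14 days. Means of Fos at 5 days (114.7 FPKM) and in engrafted cells (86.7 FPKM) rested on the single cells described above, and the median of Fos was 0 FPKM in all 5 sorts.

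Other genes of the early response and its feedback followed the same split between the classes of the reference. Of 54 further genes in 6 lists, 42 were tested over both runs and 33 were 2-fold higher in sustentacular-rich than in neuron-like cells, where 34.4% of 10346 genes were, and 2 were 2-fold lower, where 28.5% were. All 12 tested feedback regulators were higher, as were 7 of 8 other early transcription factors and 4 of 6 heat shock genes, but 3 of 7 other Krüppel-like factors. Nr4a2, an orphan nuclear receptor, averaged 163.6 against 1.47 CPM, and Zfp36, which marks AU-rich messenger RNAs for decay, 380 against 5.94 CPM in 87.7% against 8.00% of cells. Arc, a cytoskeletal gene of active neurons, averaged 51.6 against 0.0277 CPM. Hspa1a averaged 68.7 against 0.258 CPM, although it has a near-identical copy in Hspa1b and reads may have been split between them. In the uninjured Neurog1 sort 30 of 43 of these genes tested were 2-fold lower than in the whole reference, where 32.6% of genes were, and 3 were higher, where 22.4% were. Against neuron-like reference cells only, 11 of 27 were lower, where 26.2% of genes were, and 7 higher, where 34.8% were. Zfp36 and Cyr61, a secreted matrix protein of the early response, were listed at 0 in all 46 cells of that sort. Klf10 averaged 86.1, 19.8 and 298.3 CPM in uninjured, 5 day and 14 day Neurog1 cells and was found in 21.7%, 12.5% and 28% of them.

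The genes whose level followed that of Fos most closely over the 129 reference cells, which share libraries, were Ugt2a1 (Pearson's r of 0.66), Cbr2 (0.65), Pgrmc1 (0.65), Sec14l3 (0.64) and Ermn (0.62), among 6209 genes. Within the 73 sustentacular-rich cells the same correlations were 0.09, 0.11, 0.30, 0.05 and 0.22. For Klf4 they were Krt18 (0.60) and Krt8 (0.58), the simple epithelial keratins, Gldn (0.56), Btg2 (0.56) and Zfp36 (0.56), with 0.36, 0.28, 0.33, 0.32 and 0.21 within sustentacular-rich cells. Within the 50 neuron-like cells they were 0.27, 0.43, 0.40, 0.28 and 0.29 for Fos, and 0.11, 0.71, 0.43, 0.29 and 0.41 for Klf4. Within each class they were lower than over all 129 cells for these 10 genes, except for Klf4 with Krt8 in neuron-like cells, of which 3 held Klf4.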

How the data were processed

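Single-cell libraries of 7 groups, 469 in all, were measured, and 328 were kept. The tools named in the submitters' processing notes are STAR 2.5.2a, FastQC, Cuffnorm and Cufflinks 2.2.1, beside build mm9, and the role of each is not given in the sources used here. In the deposited table named as counts the values were scaled signal, computed by the authors, since 99.9% of its nonzero values were not whole, so no count test was used. The deposited FPKM table, computed by the authors, served to compare levels between genes. Of 23308 gene entries, 27 altered to dates, with 0.418% of the signal, were left out.

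Values were divided by their sum per library and given as CPM. Whole fragments were recovered from the smallest step of each library at a tolerance of 0.02, and a median of 98.5% of values were whole multiples. In 1 kept library under 90% were, and its depth was not used. A gene was tested where either group had a mean of at least 5 CPM, and called at a 2-fold ratio of mean CPM + 1. Shares over all genes belong to the main settings, and none is given for alternative settings or sets of cells. Exact Clopper-Pearson intervals are at 95%, and a count of 0 allows a share of 3 divided by the number of cells. Since amplified reads carried no molecular identifiers and so do not each stand for a molecule, intervals and floors cover counting error only.

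Clusters came from 2000 variable genes, 20 principal components and Ward's method with 12 clusters. A name needed 3 markers that were 2-fold higher and in 30% of cells. No doublet caller was run. Depth ranged from 13369 to 3295965 fragments per kept library. Python 3.11.15, numpy 2.4.6, scipy 1.17.1, pandas 2.3.3 and matplotlib 3.10.9 were used, and leidenalg 0.10.2 for an alternative. On simulated data 60 of 60 steps were recovered, and 195 of 200 genes changed 4-fold passed the 2-fold limit for the uninjured Neurog1 sort over the reference, among 23281 genes. Another 16 settings were tried, and 5 more that were chosen after seeing the data. The 10 genes and all lists were chosen with earlier results of these data known. The 10 genes are named throughout, and of the 6 related lists at most 4 genes per comparison, those with the largest ratio at a mean CPM of 50 or more. The 5 genes most like Fos and Klf4 were taken by Pearson's r of log2(CPM + 1) among genes found in 10% or more of reference cells.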

Additional observations from a re-analysis of the deposited data

How the results depend on the processing

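No paired analysis was possible because each group was 1 sample with no animal named. Counts of the 10 genes past 2-fold moved by over 1.5 times in these cases, and their causes were not tested unless the alternative itself removed cells. No share over all genes is given beside these counts, so they cannot be set against what other genes did. Without the sustentacular-rich cells of the sorts, the number higher at 5 days over the uninjured Neurog1 sort was 3 in place of 7, the number lower at 14 over 5 days 2 in place of 6, and the number lower in engrafted over 14 day OMP cells 2 in place of 4. Without the cell of highest summed level in each sort, it was 3 at 5 days and 1 in place of 2 at 14 days over the uninjured sort. With each gene's own highest cell left out of each sort, it was 2 at 5 days and 0 at 14 days over the uninjured sort, and 2 lower at 14 over 5 days. In the same setting the number lower in OMP cells at 14 days over neuron-like reference cells, which were all kept, was 7 in place of 4. Against neuron-like reference cells with sustentacular genes under 100 CPM, the number lower was 3 in place of 7 in the uninjured Neurog1 sort, 2 in place of 4 in OMP cells at 14 days and 4 in place of 7 in engrafted cells. It was 4 in the uninjured sort against reference run 1 alone, and 4 in engrafted cells with a pseudocount of 10. For run 2 over run 1, the number higher was 2 in place of 5 by pooled fragments. Within neuron-like cells it was 10 in place of 4 with cells of 500 or more genes, and 8 with the lists kept in the clustering. Within sustentacular-rich cells it was 3 in place of 0 with cells of 500 or more genes.

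The neuron-like share of reference cells was 25.3% in place of 36.2% with cells of 2000 or more genes. The sustentacular-rich share was 32.6% in place of 52.9% with 8 Ward clusters, 32.6% without the cluster that rests on few markers, and 0.0% with Leiden clusters, which so gave no value for that class. The share of reference cells with 5 or more of the genes was 58.7% at a detection limit of CPM 50, 76.9% with cells of 2000 or more genes and 57.5% with cells of 500 or more, in place of 67.4%.

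Single log2 ratios turned sign 15 times. Junb in sustentacular-rich over neuron-like cells of run 2 was −0.37 with the lists kept in the clustering. Klf6 in the uninjured Neurog1 sort over neuron-like cells was 1.72 with run 1 alone and 2.18 with the cells under 100 CPM, and Atf3 in engrafted cells over them was 0.66 and 2.71. Junb at 5 days over uninjured was −0.36 without the sustentacular-rich cells and −0.36 without the highest cell. At 14 over 5 days without the sustentacular-rich cells, Fos was 0.09, Junb 0.64 and Atf3 0.82, and Junb was 0.66 without the highest cell and 0.13 without its own highest cell. Atf3 in engrafted over 14 day OMP cells was −0.03 without its own highest cell. With cells of 2000 or more genes, Fosb and Klf4 in neuron-like cells of run 2 over run 1 were −1.0 and −0.09. Depth, classes rebuilt from clusters and 1 sample per group limit all values.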

Other observations

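Libraries left out by the filter also differed in Fos between runs of the reference. Fos was found in 25 of 26 left-out libraries of run 2 (96.2%, exact interval 80.4 to 99.9), against 7 of 28 of run 1, and in 0 of 60 left-out engrafted libraries.

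Single cells of the sorts held much Egr1. In the 5 day Neurog1 sort, 1 cell had 3802 CPM of Egr1 and none of the other genes. In the OMP sort at 14 days, 1 cell had 5028 CPM of Egr1 with 5 of the genes found (Dusp1 at 704.9, Jun at 236.6, Fos at 150.3 and Klf6 at 19.7 CPM), and another had 2162 CPM with Egr1 alone. All 3 were in an unnamed cluster whose cells had a median depth of 0.32 of that of their own samples, and were chosen after their values were seen.

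In the 9 libraries of over 10000 genes, Junb and Ier2 were found in all 9, with means of 240.8 and 302.5 CPM, and Klf4 averaged 29.3 CPM.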
